A study of Mus musculus with 2 samples.

Results

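The genes described here are the haemoglobin chain genes of the mouse and the pair of genes for the enzyme that opens haem synthesis, 9 genes of the 43346 mouse genes in each table. They were taken by symbol: the adult alpha globins Hba-a1 and Hba-a2, the adult beta globins Hbb-bs and Hbb-bt, the embryonic globins Hba-x, Hbb-y and Hbb-bh1, and Alas1 and Alas2. All 9 had a row in both tables. RNA came from the whole midbrain of newborn mice (postnatal day 0) of strain B6NCrl, a C57BL/6N line, with 1 library from pup 1 (replicate 1) and 1 library from pup 3 (replicate 2). Per the labels, 13 pg of total RNA, the amount of about 1 cell, entered a SMART-type amplification for each library. The assay is labelled as single-cell RNA-seq, but the labels also give the material as tissue RNA by weight, and it is read here as RNA of whole midbrain. No treatment or engineered allele is named, sex was not recorded and both pups carry the same donor record. Both pups form 1 group, so the comparison of pup 1 with pup 3 is a comparison of 2 libraries and not of conditions, and a two-sided exact test over 2 pups could not go below p = 0.5.

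Haemoglobin joins alpha-like and beta-like chains around haem and carries oxygen in red blood cells. In the mouse embryo the first red cells, from the yolk sac, make the zeta-like chain of Hba-x with the beta-like chains of Hbb-y and Hbb-bh1, and red cells from the fetal liver and later the marrow make the adult chains. Haem is built from glycine and succinyl-CoA by enzymes that work partly in mitochondria and partly in the cytosol. The first of them, 5-aminolevulinate synthase, is encoded by Alas1 in most tissues and by the X-linked Alas2 in red cell precursors. RNA of whole brain tissue includes that of blood in its vessels, and adult rodent dopamine neurons of the midbrain have been reported to hold globin RNA.

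The adult genes come in near-identical pairs, so the sequences are given before the values. The coding sequences of Hba-a1 and Hba-a2 matched at 428 of 429 bases, and those of Hbb-bs and Hbb-bt at 443 of 444. The only coding difference of the alpha pair was C381T, with Hba-a1 as the first sequence and positions counted from 1 at the start codon. It lies in codon 127 and leaves the protein the same. The only coding difference of the beta pair was C417T, with Hbb-bs as the first sequence, in codon 139, and it is also silent. The stretches around these bases are shown because a read over them can be placed on 1 copy, with the differing base in capitals. They were read 5′ to 3′ in the sense of the gene from GRCm38, at chr11:32284328-32284358 (plus strand), chr11:32297145-32297175 (plus), chr7:103826677-103826707 (minus) and chr7:103812668-103812698 (minus).
Hba-a1: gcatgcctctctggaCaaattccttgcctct
Hba-a2: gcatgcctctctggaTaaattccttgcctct
Hbb-bs: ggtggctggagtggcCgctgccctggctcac
Hbb-bt: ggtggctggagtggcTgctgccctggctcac

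Away from the coding sequence the copies differ more. Of all stretches of 100 bases in the coding transcript model of Hba-a1, 56.5% also occurred in a model of Hba-a2, and 74.5% of those of the Hba-a2 model occurred in Hba-a1. For the beta pair the shares were 62.6% for the longer coding model of Hbb-bs and 54.8% for Hbb-bt, from the GENCODE M21 sequences, in which 2 of the Hbb-bs models differ in length from the M4 models behind the values. A read within such a stretch fits both copies, and the deposited counts divide it by estimate. Between adult and embryonic genes the coding sequences were 62.0% identical for Hba-a1 and Hba-x, 74.3% for Hbb-bs and Hbb-y, and 74.1% for Hbb-bs and Hbb-bh1. No stretch of 100 bases was shared between an adult and an embryonic gene, so reads of that length cannot fit both.

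The 120 bases before the transcription start that RefSeq gives (GRCm38.p6) are shown for 4 genes whose levels are compared here, with 5 short motifs in capitals where they, or their reverse complements, occurred. These are the CCAAT box, the CACCC element, the ATATAA form of the TATA box, and the forms TGATAA and also AGATAA of the site that GATA factors bind. Copies lie end to end in Hbb-bt and Alas2, without overlap. Positions are chr11:32296372-32296491 (plus strand) for Hba-a2, chr7:103827929-103828048 (minus) for Hbb-bs, chr7:103813924-103814043 (minus) for Hbb-bt and chrX:150547297-150547416 (plus) for Alas2.
Hba-a2: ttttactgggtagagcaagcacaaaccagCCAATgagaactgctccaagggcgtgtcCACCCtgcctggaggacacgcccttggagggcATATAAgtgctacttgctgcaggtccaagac
Hbb-bs: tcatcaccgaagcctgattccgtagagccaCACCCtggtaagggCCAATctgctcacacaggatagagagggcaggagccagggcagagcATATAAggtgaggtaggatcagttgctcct
Hbb-bt: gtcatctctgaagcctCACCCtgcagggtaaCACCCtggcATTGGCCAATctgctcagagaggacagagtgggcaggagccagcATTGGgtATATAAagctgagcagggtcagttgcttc
Alas2: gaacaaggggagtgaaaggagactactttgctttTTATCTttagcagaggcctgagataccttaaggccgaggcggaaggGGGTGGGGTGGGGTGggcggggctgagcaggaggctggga

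All 4 adult globin promoters held the CCAAT box, the CACCC element and the TATA box within these 120 bases. Of the 32851 promoters in the RefSeq table, 21.3% held the first of these motifs in the same window, 31.7% the second and 4.47% the TATA box. The TATA box began 28 bases before the start in Hba-a1, 31 in Hba-a2, 30 in Hbb-bs and 29 in Hbb-bt. Alas2 held 3 copies of the CACCC element on the opposite strand and 1 AGATAA site, found in 4.36% of promoters, and had neither of the other boxes. Hba-x held the CACCC element, the TATA box and a TGATAA site, found in 3.55% of promoters, and Hbb-y held the CACCC element and the CCAAT box. Neither of the 2 RefSeq starts of Alas1 had any of the 5 motifs in this window. The promoters of Hba-a1 and Hba-a2 were the same over 297 bases after a shift of 3 bases between their annotated starts. With the 120 bases aligned and gaps allowed, Hba-a1 and Hba-a2 matched at 117 bases, and Hbb-bs and Hbb-bt at 88. The outer edge of the GENCODE gene span lies upstream of the RefSeq start by 168 bases in Hbb-bs and 161 in Hba-a1. This edge lies 200 bases upstream in Hba-x, 73 in Hbb-bt, 42 in Alas2, 9 in Hbb-y and 3 in Hba-a2. For the 2 starts of Alas1 it lies 700 and 924 bases upstream. The 120 bases of Hbb-bs, Hba-a1, Hba-x and Alas1 thus fall within their GENCODE gene spans. Single models can start elsewhere than this edge. The coding model ENSMUST00000023934 of Hbb-bs starts at the RefSeq start, and ENSMUST00000112524 of Alas1 at 1 of the 2 RefSeq starts. A RefSeq promoter was found for 8 of the 9 genes, all but Hbb-bh1. The motif matches are descriptions of sequence only.

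The libraries held 26037002 counts over mouse genes in pup 1 and 32408655 in pup 3. A count of 0 therefore allows up to 3 counts, or 0.115 CPM in pup 1 and 0.0926 CPM in pup 3, where CPM is the count scaled to a common library total. Levels are in TPM, counts per transcript length scaled to a common total, and can be compared between genes. Genes detected, at 1 TPM or more, numbered 10166 in pup 1 and 9367 in pup 3. Spike-in RNA took 2.05% and 2.21% of all counts, and mitochondrial genes took 2.85% and 2.72% of gene counts. All 6 pan-neuronal markers were detected in both pups, with a summed level of 11682 TPM in pup 1 and 9500 TPM in pup 3, as were 3 of 6 dopaminergic markers, Th among them. The other 3, Slc6a3, Slc18a2 and Pitx3, were listed at 0 in pup 3, and Ddc and Nr4a2 were over 4-fold lower in pup 1. Of all protein-coding genes, 31.8% were detected in both pups. Intervals, limits for counts of 0 and folds given as at least a value cover counting error alone. Many reads can descend from 1 amplified molecule, so reads are not independent. Losses before amplification are not covered.

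All 4 adult globin genes were read in both pups at 166 to 1099 TPM, the 3 embryonic globins had no count in either, Alas1 was read in both, and Alas2 was read in pup 3 alone. Thus 5 of the 9 genes were detected in both pups, beside 17.0% of all mouse genes and 31.8% of protein-coding genes. By level within each library the order was Hba-a2, Hbb-bs, Hba-a1, Hbb-bt and Alas1 in both pups, with Alas2 next in pup 3 and at 0 in pup 1. Hba-a2 ranked 166th of all genes in pup 1 and 98th in pup 3.

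**Figure D1:**
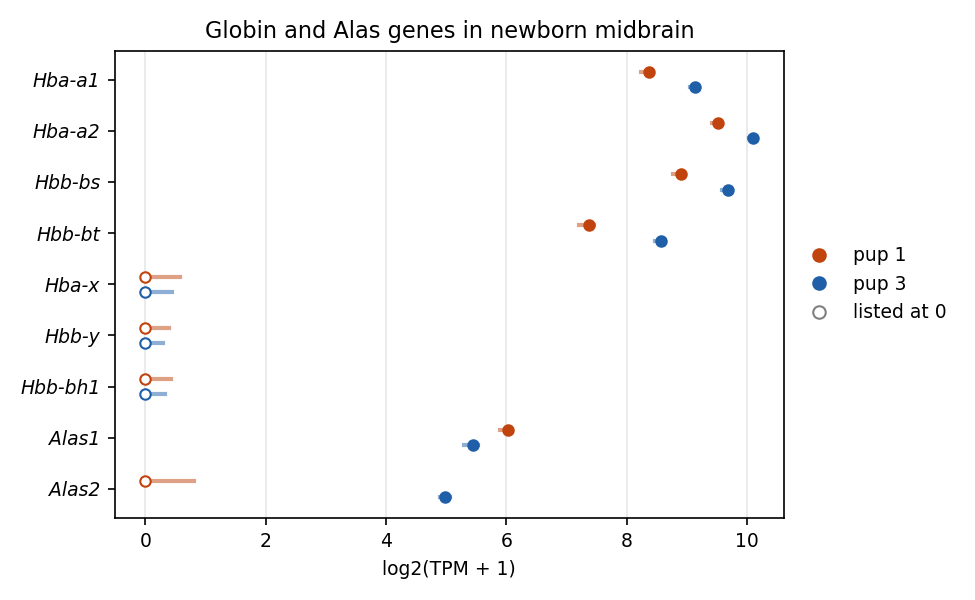
Level of the 9 genes in each library as log2(TPM + 1), with pup 1 above pup 3. Points are deposited TPM, open points are listed at 0, and bars are the deposited 95% intervals, which surround the posterior estimate and can lie to 1 side of the point. The adult globins lie above log2 of 7 in both pups and further right in pup 3.

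Hba-a2 (ENSMUSG00000069917.7, GRCm38 chr11:32296489-32297298, plus strand) encodes the adult alpha chain and had the highest level of the 9 genes. It was at 733 TPM in pup 1 and 1099 TPM in pup 3 (916 ± 259, mean ± SD, n = 2), from 5437 and 11392 counts. The deposited posterior SD, which measures how firmly reads could be assigned, was 75.8 counts in pup 1 and 109 counts in pup 3. Scaled by the gene totals, its count was 1.68-fold lower in pup 1 (95% interval 1.63 to 1.74). Such intervals of single copies leave out the error of dividing shared reads.

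Hba-a1 (ENSMUSG00000069919.7, chr11:32283511-32284465, plus strand) encodes the same alpha chain from the copy nearer to Hba-x. It was at 328 TPM in pup 1 and 562 TPM in pup 3 (445 ± 165, n = 2), from 2710 and 6016 counts. Its count was 1.78-fold lower in pup 1 (1.70 to 1.87). The posterior SD of 75.8 counts in pup 1 was the same as that of Hba-a2, and 2 copies that trade reads have equal SDs. It was 2.80% of the Hba-a1 count in pup 1 and 1.81% in pup 3, so the levels of the copies stood apart by far more than this SD. This SD takes the transcript models as given. The GENCODE start lies 161 bases upstream of the RefSeq start in Hba-a1 and 3 bases upstream in Hba-a2. The part that the models had in the division between the copies was not tested.

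The counts of the alpha pair added up to whole reads, 8147 in pup 1 and 17408 in pup 3, within 0.02 of a read. This sum does not depend on how shared reads were divided. Hba-a1 held 30.9% of the pair's TPM in pup 1 and 33.8% in pup 3 (32.4 ± 2.04%, n = 2), so Hba-a2 stood 2.23-fold and 1.96-fold above Hba-a1. By counts, without division by length, the share of Hba-a1 was 33.3% and 34.6%. Both pups thus had about the same division of the alpha pair.

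Hbb-bs (ENSMUSG00000052305.5, chr7:103826534-103828096, minus strand) is one of the adult beta genes of C57BL mice. It was at 476 TPM in pup 1 and 819 TPM in pup 3 (647 ± 242, n = 2), from 3991 and 9378 counts with posterior SDs of 63.4 and 117 counts. Its count was 1.89-fold lower in pup 1 (1.82 to 1.96).

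Hbb-bt (ENSMUSG00000073940.3, chr7:103812524-103813996, minus strand), the other adult beta gene, was the lowest adult globin in both pups. It was at 166 TPM in pup 1 and 381 TPM in pup 3 (273 ± 152, n = 2), from 1631 and 5238 counts, with the same posterior SDs as Hbb-bs, which came to 3.89% and 2.24% of its count. Its count was 2.58-fold lower in pup 1 (2.44 to 2.73), further apart than for the other adult globins.

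The beta pair also summed to whole reads, 5622 in pup 1 and 14616 in pup 3. Hbb-bs held 74.2% of the pair's TPM in pup 1 and 68.3% in pup 3 (71.2 ± 4.19%, n = 2). It stood 2.87-fold above Hbb-bt in pup 1 and 2.15-fold above it in pup 3. In each pair and each pup the same copy was the higher one, Hba-a2 for alpha and Hbb-bs for beta.

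Summed over the adult genes, globin took 13769 counts in pup 1 and 32024 in pup 3, or 529 and 988 CPM. This is 0.0529% of gene counts in pup 1 (exact Clopper-Pearson 95% interval 0.0520 to 0.0538%) and 0.0988% in pup 3 (0.0977 to 0.0999%), with a mean of 0.0758 ± 0.0325% (n = 2). The sum was 1.87-fold lower in pup 1 (1.83 to 1.91). All 4 adult genes were lower in pup 1, and reads shared within a pair tie each copy to its partner. Their median difference was -0.88 on the log2 scale, pup 1 over pup 3, against -0.22 for the 7389 genes detected in both pups and -0.22 for the 1667 genes with a mean of at least 100 TPM. The median size of a difference, whatever its direction, was 1.83-fold for the adult globins, 1.86-fold for genes detected in both and 1.52-fold for genes of at least 100 TPM. In RNA of whole tissue, fewer cells of a type and less RNA per cell cannot be told apart.

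Under other scalings, which shift the difference of every gene by 0.11 to 0.20 on the log2 scale, the summed globin counts stayed lower in pup 1. The difference was 1.64-fold with edgeR's TMM factors, 1.63-fold with DESeq2 size factors and 1.73-fold with the spike-in total. The median of genes detected in both pups was then -0.02, -0.02 and -0.10 on the log2 scale.

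A gene was listed as over 4-fold apart when the whole 95% interval of its scaled count ratio lay beyond 4-fold. Counts above 0 were present for 6 of the 9 genes, and 1 of these 6, Alas2, was over 4-fold apart. Over all 14605 genes with any count the share was 41.0%, it was 47.3% of genes with at least 10 counts in a library, and it was 4.02% of the 1667 genes with a mean of at least 100 TPM, the range of the adult globins. At 2-fold, Hbb-bt joined Alas2, both lower in pup 1, beside 55.2% of all genes with a count in either direction, 26.0% lower in pup 1, and 24.2% of those with at least 100 TPM. No adult globin was over 4-fold apart.

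**Figure D2:**
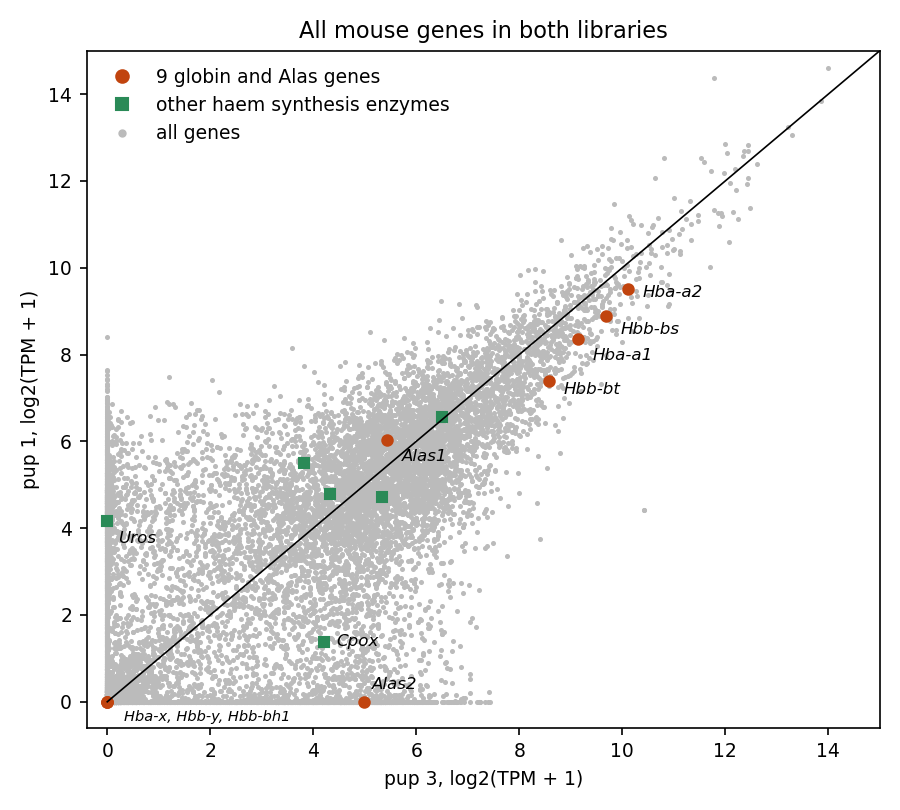
Each mouse gene in pup 1 (vertical axis) against pup 3 (horizontal axis), as log2(TPM + 1), with the line of equal levels. The adult globins lie close together just below the line, while Alas2 and Cpox lie low in pup 1 and Uros low in pup 3.

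Alpha globin RNA stood above beta globin RNA in both pups when counted per length. Summed over copies, alpha was at 1061 TPM and beta at 642 TPM in pup 1, and alpha was at 1661 TPM and beta at 1199 TPM in pup 3. The alpha to beta ratio was 1.65 in pup 1 (95% interval 1.60 to 1.71) and 1.38 in pup 3 (1.35 to 1.42), with a mean of 1.52 ± 0.191 (n = 2), or 0.60 ± 0.18 on the log2 scale. The ratio was above 1 in both pups, by more than the spread between them. Alpha made up 62.3% of adult globin TPM in pup 1 and 58.1% in pup 3.

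The size of this ratio depended on which transcript models were counted. By counts alone it was 1.45 in pup 1 and 1.19 in pup 3. With only the models that GENCODE M21 labels protein coding it was 1.94 in pup 1 and 1.58 in pup 3, an alternative chosen after the data were seen. Under each of these settings alpha exceeded beta in both pups and the ratio was higher in pup 1.

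**Figure D3:**
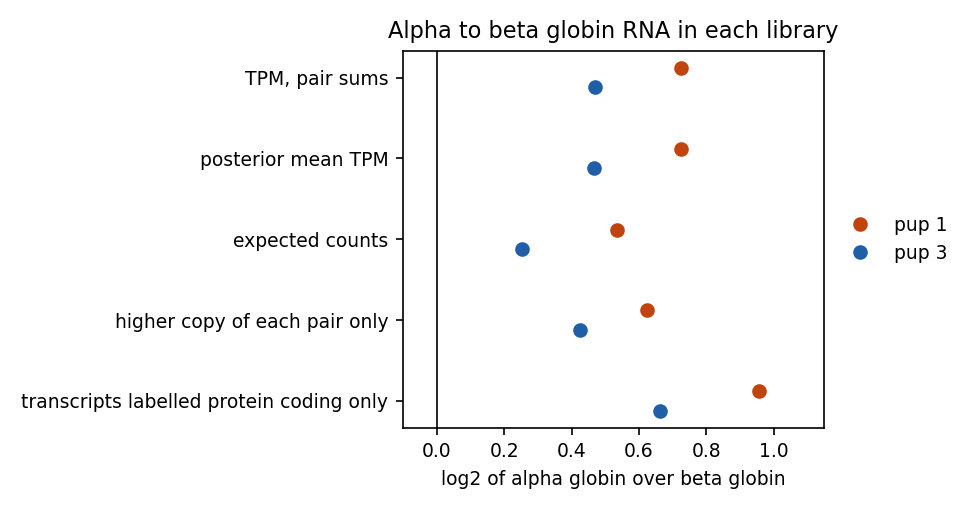
The log2 ratio of alpha over beta globin in pup 1 (upper points) and pup 3 (lower points) under 5 ways of summing the genes. The vertical line marks equal levels, and all points lie to its right, between 0.25 and 0.96.

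The deposited tables also divide each gene among transcript models. Hba-a1 had 54.4% of its TPM in pup 1 and 36.7% in pup 3 on its coding model (ENSMUST00000093209.3). The rest, 964 counts in pup 1 and 3197 in pup 3, lay on a model labelled retained intron (ENSMUST00000142555.1), with posterior SDs of 101 and 147 counts. Hba-a2 has a model of the same kind and length, 494 bases, and it held 0 counts in both pups, so that all Hba-a2 reads were on the coding model ENSMUST00000093207.3. Of the 100-base stretches in the retained-intron model of Hba-a1, 75.7% also occur in Hba-a2.

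In Hbb-bs a model labelled retained intron in M21 (ENSMUST00000131960) held 36.1% of the gene's TPM in pup 1 and 45.7% in pup 3. The coding models ENSMUST00000023934 and ENSMUST00000153218 held the rest, 63.9% in pup 1 and 54.3% in pup 3. Hbb-bt has a single model. The share on the coding models was lower in pup 3 for both Hba-a1 and Hbb-bs.

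**Figure D4:**
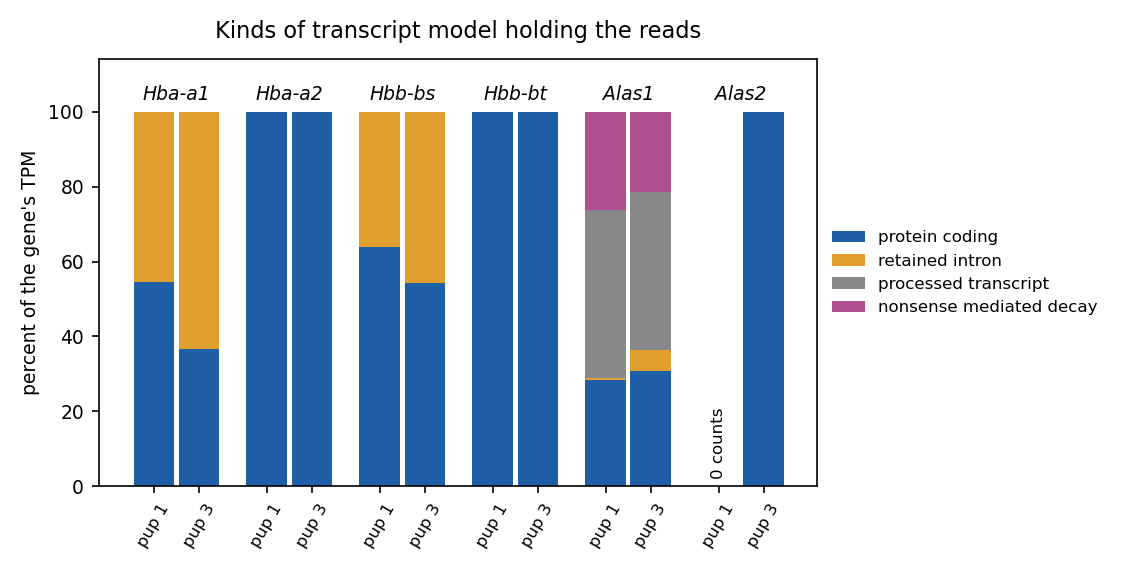
Percent of each gene's TPM on each kind of transcript model, as labelled in GENCODE M21, with pup 1 left of pup 3. Hba-a2 and Hbb-bt are wholly on coding models, Hba-a1 and Hbb-bs carry 36.1% to 63.3% on retained-intron models, and Alas1 has 28.4% in pup 1 and 30.8% in pup 3 on coding models.

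No embryonic globin was detected. Hba-x (chr11:32276400-32278116), Hbb-y (chr7:103851749-103853216) and Hbb-bh1 (chr7:103841637-103843164) each had 0 counts in both pups, with a posterior SD of 0. Against 13769 globin counts in pup 1 and 32024 in pup 3, a sum of 0 allows an embryonic share of up to 0.0218% in pup 1 and 0.00937% in pup 3. The embryonic to adult ratio is thus listed at 0, with these limits for counting error.

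Other genes of the globin family were sparse. Hbb-bh0, Hbb-bh2, Hbq1b and Mb, which encodes the myoglobin of muscle, had 0 counts in both pups, and Hbq1a, a theta-like gene of the alpha cluster, had 5 counts in pup 1 and 0 in pup 3. Cygb, the cytoglobin of many tissues, was at 19.8 TPM in pup 1 and 51.2 TPM in pup 3. Ngb, the neuroglobin of neurons, was at 2.48 TPM in pup 1 and 9.58 TPM in pup 3. Both were lower in pup 1, by 2.91-fold (2.67 to 3.16) for Cygb and 4.35-fold (3.30 to 5.81) for Ngb, and neither was over 4-fold apart by its whole interval.

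Alas1 and Alas2 catalyse the same first step of haem synthesis, and their levels differed between the pups in opposite directions. Alas1 (ENSMUSG00000032786.10, chr9:106233455-106248654, minus strand) was at 64.4 TPM in pup 1 and 42.4 TPM in pup 3 (53.4 ± 15.6, n = 2), from 1701 and 1643 counts with a posterior SD of 0. Its scaled count was 1.29-fold higher in pup 1 (1.20 to 1.38).

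Alas2 (ENSMUSG00000025270.9, chrX:150547375-150570638, plus strand), the red cell form, had 0 counts in pup 1. In pup 3 it had 1354 counts (posterior SD 0.48) and 30.7 TPM, all of them assigned to the model ENSMUST00000066337.8, with a posterior SD of 45.2 counts for that model. Against a floor of 3 counts in pup 1 its count was at least 363-fold lower there, a bound for counting error alone. The difference of Alas1 minus Alas2 on the log2(TPM + 1) scale was 6.03 in pup 1 and 0.45 in pup 3, or 3.24 ± 3.94 (n = 2). Since Alas2 was at 0 in pup 1, the value there is set by the pseudocount: with 0.1 in place of 1 it was 9.33, and the mean 4.90, and on counts with a pseudocount of 1 it was 10.7, and the mean 5.51. In pup 3 the same settings gave 0.46 and 0.28. Summed over all models, Alas1 was the higher of both in each pup, and the spread between the pups exceeded the mean difference. On models that M21 labels protein coding, Alas1 held 636 counts in pup 1 and 708 in pup 3. Alas2 held 0 and 1354 on such models, so the order in pup 3 depended on which models were counted.

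Like Alas2, 17.9% of the 14605 genes with any count were over 4-fold lower in pup 1. The adult globin sum was also lower in pup 1, though by 1.87-fold only.

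Most Alas1 reads lay on models that GENCODE M21 does not label protein coding. By counts the coding models held 636 of 1701 in pup 1 and 708 of 1643 in pup 3. M21 holds other versions of ENSMUST00000134053 and of the coding models than those behind the values. The shares that follow are of TPM. In pup 1 a model labelled processed transcript (ENSMUST00000134053) held 44.9% of its TPM, and in pup 3 it held 42.2%. Models labelled as targets of nonsense-mediated decay held 26.2% and 21.5%, and coding models 28.4% and 30.8%. The division of Alas1 over these kinds was similar in both pups, although the posterior SD of single models reached 89.7 counts. Models labelled retained intron held 0.50% in pup 1 and 5.47% in pup 3. Among the coding models, ENSMUST00000141118 held 4.10% in pup 1 and 14.6% in pup 3, and ENSMUST00000074082 held 24.3% and 16.2%.

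The remaining enzymes of the pathway were unevenly read. Counting Alas1 and Alas2, both pups had 6 of the 9 enzyme genes at 1 TPM or more, 2 were at that level in pup 1 alone and 1 in pup 3 alone, beside 31.8% of protein-coding genes detected in both. Pup 1 held 8 of the 9 and pup 3 held 7. Over 4-fold apart were 2 genes higher in pup 1, Uros among them, and 2 lower in pup 1, Alas2 and Cpox. That is 4 of 9, beside 41.0% of all genes with a count, of which 23.1% were higher and 17.9% lower in pup 1 as shares of the same total.

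Alad, which joins aminolevulinate molecules into porphobilinogen, had the highest level of the pathway, 93.8 TPM in pup 1 and 89.5 TPM in pup 3 (91.6 ± 3.02, n = 2). Uros, which closes a linear tetrapyrrole into a ring, had 320 counts and 17.1 TPM in pup 1 and 0 counts in pup 3, at least 133-fold higher in pup 1. Uros was thus unread in pup 3, the library with Alas2.

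Urod, which removes carboxyl groups from the ring, was at 26.5 TPM in pup 1 and 18.9 TPM in pup 3, and its count was 3.22-fold higher in pup 1 (2.73 to 3.82). The TPM of Urod stood closer together because its effective length, by which TPM divides the counts, was 1180 bases in pup 1 and 456 bases in pup 3. Cpox, the next enzyme, had 80 counts in pup 1 and 1232 in pup 3, or 1.59 and 17.5 TPM, and was 12.4-fold lower in pup 1 (9.86 to 15.7). Ppox, which acts after it, was at 25.3 TPM in pup 1 and 39.3 TPM in pup 3, and its count was 1.70-fold lower in pup 1 (1.56 to 1.87). Fech, which inserts iron to complete haem, was at 44.2 TPM in pup 1 and 13.2 TPM in pup 3, and was 2.98-fold higher in pup 1 (2.75 to 3.23).

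By TPM, 6 of the 9 enzyme genes were higher in pup 1 and 3 were lower. For Alad the direction depended on the measure: its TPM was higher in pup 1, and its count scaled by gene totals was 1.07-fold lower there (1.01 to 1.14). No direction is given for it. The pathway summed to 291 TPM in pup 1 and 252 TPM in pup 3.

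**Figure D5:**
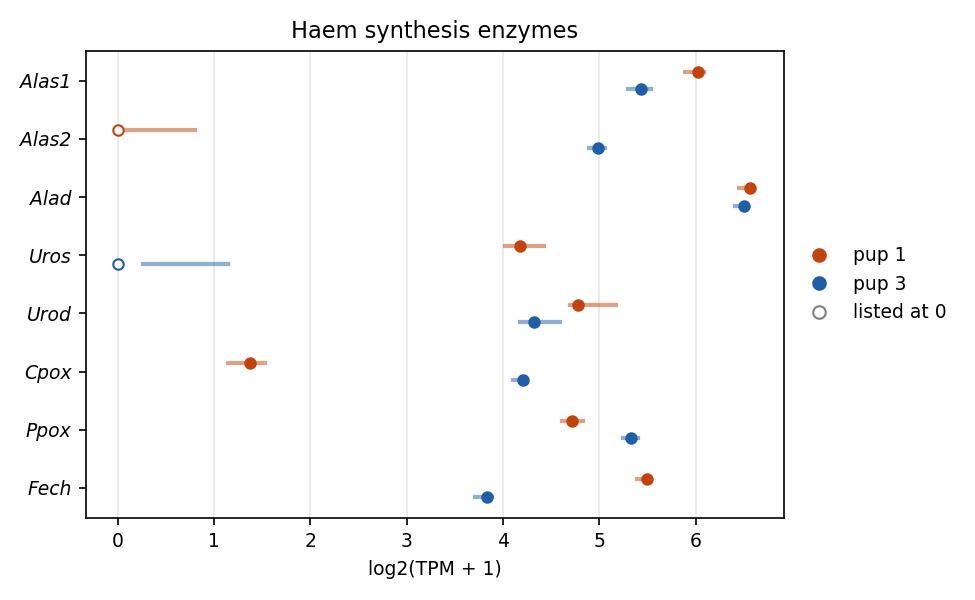
Level of haem synthesis enzymes as log2(TPM + 1), with pup 1 above pup 3 and deposited 95% intervals as bars. Open points are listed at 0: Alas2 in pup 1 and Uros in pup 3. Alad is level with 93.8 TPM in pup 1 and 89.5 TPM in pup 3, whereas Uros, Cpox and Alas2 are far apart.

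Reads of the pathway were also divided over transcript models. Uros in pup 1 had 56.0% of its TPM on the coding model ENSMUST00000151348 and 43.9% on ENSMUST00000135760, which M21 labels retained intron. By counts the order was reversed, with 64.4 on the coding model of 512 bases and 256 on the retained-intron model of 2189 bases. Fech has a single model in these tables.

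Genes that supply and move haem and its precursors were also read in part. Of 16, 7 were detected in both pups, beside 31.8% of protein-coding genes. A further 2 were detected in pup 1 alone, 3 in pup 3 alone and 4 in neither. The 16 summed to 1088 TPM in pup 1 and 1229 TPM in pup 3. Pgrmc1, which binds haem and partners with ferrochelatase, was the highest at 785 TPM in pup 1 and 818 TPM in pup 3. Slc48a1, a haem carrier of lysosomes, was at 104 and 49.0 TPM.

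Several of these genes were over 4-fold apart, 3 higher in pup 1 and 5 lower in pup 1. These 8 of 16 stand beside 41.0% of all genes with a count and 47.3% of those with at least 10 counts, a share near this background. Slc25a38, the mitochondrial carrier that brings in glycine, was at 45.7 TPM in pup 1 and 0 in pup 3, at least 523-fold higher in pup 1. Tmem14c, which moves protoporphyrinogen in mitochondria, was at 18.6 TPM in pup 1 and 133 TPM in pup 3, 8.02-fold lower in pup 1 (7.05 to 9.15). Flvcr1, a membrane carrier described as a haem exporter, was at 2.01 TPM in pup 1 and 14.1 TPM in pup 3, 7.90-fold lower in pup 1 (6.24 to 10.1). Glrx5, of iron-sulfur cluster assembly, was at 0 in pup 1 and 52.7 TPM in pup 3. Also over 4-fold apart were Abcb10 (74 counts in pup 1 and 0 in pup 3), Slc25a28 (0 and 41) and Tspo (1 and 733). Flvcr2 and Tspo2 had 0 counts in both pups.

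Slc25a37, the mitochondrial iron carrier of red cell precursors, had 0 counts in pup 1 and 8 in pup 3. Abcb6, a porphyrin transporter, was at 85.9 TPM in pup 1 and 21.5 TPM in pup 3. Abcg2, a porphyrin exporter, was at 23.9 TPM in pup 1 and 68.7 TPM in pup 3, and Clpx, which in yeast activates aminolevulinate synthase, at 21.6 and 28.5 TPM.

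The genes of haem breakdown, which turn haem into biliverdin and then bilirubin, were read as follows. Hmox2, the constant haem oxygenase of brain, was at 81.7 TPM in pup 1 and 142 TPM in pup 3. Hmox1, the inducible form, was at 36.9 TPM in pup 1 and 0 in pup 3, at least 371-fold higher in pup 1. The biliverdin reductases had 0 counts in pup 1, against 97.1 TPM for Blvra and 77.0 TPM for Blvrb in pup 3, so they were at least 565-fold and 398-fold lower in pup 1. Of the 4 breakdown genes, 3 were over 4-fold apart, beside 41.0% of all genes with a count. Of the genes that clear free haemoglobin or haem, Cd163 had 0 counts, Hp and Hpx had at most 6, and Lrp1 was at 76.7 TPM in pup 1 and 25.1 TPM in pup 3. The Lrp1 counts, 4784 and 4705, were only 1.27-fold higher in pup 1 once scaled (1.22 to 1.32), and its effective length was 3829 bases in pup 1 and 8213 bases in pup 3, by which TPM divides the counts.

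Markers of red cells were read beside the globins. Of protein-coding genes, 31.8% were detected in both pups. Of 29 erythroid genes with a row, 5 were detected in both pups, 3 in pup 1 alone, 2 in pup 3 alone and 19 in neither, and 14 had 0 counts in both. Their summed level was 332 TPM in pup 1 and 192 TPM in pup 3, most of it from the 5 genes detected in both pups, which are also made outside red cells. Those 5 summed to 301 TPM in pup 1 and 180.4 TPM in pup 3, and the remaining 24 to 30.4 and 11.7 TPM. Among the regulators of red cell genes, Gata1, Klf1, Nfe2, Zfpm1, Myb and Sox6 had 0 counts in both pups. Among the genes of the red cell membrane and late red cells, Epb42, Rhag, Rhd, Kel, Ermap, Car1 and Trim58 had 0 counts in both, and Slc4a1 had 1 count in pup 1 and 3 in pup 3.

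The 5 erythroid genes detected in both pups were Bpgm at 95.6 TPM in pup 1 and 16.5 TPM in pup 3, Car2 at 40.3 and 54.0 TPM, Tfrc at 60.5 and 30.9 TPM, Bcl11a, a repressor of embryonic globins in mice that neurons also make, at 94.9 and 77.6 TPM, and Epor at 10.1 and 1.37 TPM. Bpgm and Epor were over 4-fold higher in pup 1. The other listed genes past 4-fold were Gypc (857 counts in pup 1 and 0 in pup 3), Lmo2 (32 and 1) and Zbtb7a (294 and 0), higher in pup 1, and Tal1 (0 and 700) and Ldb1 (11 and 136), lower in pup 1. Thus 5 of the 29 were over 4-fold higher in pup 1 and 2 lower. Of the 14605 genes with any count, 23.1% were higher and 17.9% lower, and the 29 include 14 with no count. Ahsp, which encodes a chaperone of alpha globin, had no row under its symbol.

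Markers of other blood and vessel cells gave these values, beside 31.8% of protein-coding genes detected in both pups. Of 9 leukocyte genes none was detected, with sums of 0.42 TPM in pup 1 and 0.31 TPM in pup 3, and S100a9, Lyz2, Cd3e, Cd79a and Elane had 0 counts. Of 7 platelet genes, Pf4 had 167 counts in pup 1 and 345 in pup 3, Gp1bb was at 0.09 and 13.8 TPM, and Ppbp, Itga2b, Gp1ba, Gp9 and Tubb1 had 0 counts. Of 8 endothelial genes, 3 were detected in both pups, led by Cldn5 at 147 TPM in pup 1 and 115 TPM in pup 3. Kdr was at 0.48 and 17.8 TPM, Esam at 49.8 and 0 TPM, Tek had 0 counts, and the list summed to 210 TPM in pup 1 and 158 TPM in pup 3. Of 5 fetal liver genes, Apoa1 alone was detected, at 7.01 and 2.02 TPM. The part that cells of blood left in vessels had in the globin levels was not tested.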

How the data were processed

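Each library had 1 gene table and 1 transcript table, on mm10 and GENCODE M4 per the file headers. The aligner, the counting program, their versions and strand use were not given in the sources used here. Expected counts, as deposited, divide reads that match several genes. The deposited TPM are those counts per effective length, which was the transcript length minus 99 bases in all 101568 transcripts with one, scaled over all rows. Posterior mean counts, posterior SDs, TPM intervals and the percent of each gene on each transcript were used as deposited by the authors. A gene table listed 43346 genes of the mouse among 69691 rows, the others being 26248 tRNA and 97 spike-in entries. Totals were taken over mouse genes, and symbols were found for 42462.

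Expected counts were rounded for intervals. Ratios are pup 1 over pup 3 unless written as lower in pup 1, and have exact Clopper-Pearson 95% intervals. A 0 was replaced by a floor of 3 counts per library for bounds. No test over pups was run. The size rule, tested on simulated data of 43346 genes, listed 99% of 100 genes set 8-fold apart and 0% of 100 set 2-fold apart. The simulation held counting error only. The 9 genes and the 130 list genes with a row were chosen with earlier results of these data known. The genes named were the 9, all haem synthesis enzymes, up to 4 genes of other lists by mean TPM, those over 4-fold apart or at 0 in both pups, and the 3 nearest protein-coding genes to Hba-a2, Hbb-bs and Alas1. Clpx, Abcg2, Slc25a37 and Slc4a1 were named after their values were seen. Some genes that the rule selects are included in counts and sums but not reported here. Coordinates and transcript sequences are from GENCODE M21 on GRCm38 and promoters from RefSeq. Scaling factors came from edgeR 4.0.16 and DESeq2 1.42.0 (R 4.3.3). All else used scipy 1.17.1, pandas 2.3.3, numpy 2.4.6 and biopython 1.88 under Python 3.11.15, and figures used matplotlib 3.10.9.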

Additional observations from a re-analysis of the deposited data

How the results depend on the processing

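Of 37 alternatives for the summary results, 31 stayed within the spread between pups or, for counts, within 1.5 times. Means with either pup left out are not among them, since with 2 pups they always lie within the spread. Some of the 31 could hardly have fallen outside. Posterior mean counts left the globin share at 0.0758% and the embryonic limit at 0.0156%. Alas2, at 0 counts in pup 1 and 1354 in pup 3, was over 4-fold apart under each scaling used. The spread of Alas1 minus Alas2, 3.94, exceeded its mean of 3.24. Means of 4.90 and 5.51 under other settings thus lay within that spread. The tally is therefore not a measure of robustness. The mean alpha to beta log2 ratio was 0.60, against 0.39 by expected counts without division by length and 0.81 over transcripts labelled protein coding only, a setting chosen after seeing the data. It ranged from 0.47 to 0.73 when either pup was left out. Globin took 0.0758% of gene counts and 0.239% of the TPM of mouse genes, or 0.228% of TPM over all rows. The globin share ranged from 0.0529% to 0.0988% when either pup was left out, and the embryonic limit from 0.00937% to 0.0218%. Alas1 minus Alas2, with a mean of 3.24, was 4.90 with a pseudocount of 0.1 and 5.51 by counts, and ranged from 0.45 to 6.03 without either pup, the Hba-a1 share from 30.9% to 33.8% and the Hbb-bs share from 68.3% to 74.2%. Of the 9 genes, 2 were over 2-fold apart and 1 over 4-fold. Of 29 erythroid genes, 5 were detected in both pups at a TPM of 1, 11 had any count in both, and 7 to 8 were detected when 1 pup was left out. Of 9 haem synthesis genes, 7 to 8 were detected then, and 5 to 7 under the other settings. Alad turned direction on the log2 scale, -0.10 by gene totals, 0.091 by TMM, 0.10 by DESeq2 size factors and 0.011 by the spike-in total. No paired analysis was possible because each replicate number belongs to a single library of 1 group. No setting covers losses before amplification, and 2 libraries give no replicate check of a difference between pups.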

Other observations

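The genes whose levels in both libraries lay nearest to those of Hba-a2 were Sumo2 (705 TPM in pup 1 and 1081 TPM in pup 3), a small modifier protein, Dynlrb1 (750 and 991 TPM), a dynein light chain, and Myl6 (707 and 1229 TPM), a myosin light chain, by Euclidean distance on log2(TPM + 1) over 2 libraries. Nearest to Hbb-bs were Hmgb1 (460 and 834 TPM), a chromatin protein, Skp1a (495 and 868 TPM), of ubiquitin ligases, and Dynll1 (458 and 871 TPM), a dynein light chain. Nearest to Alas1 were Scn3a (63.7 and 42.3 TPM), a sodium channel subunit, Ubac1 (64.8 and 42.9 TPM) and Fam84a (63.9 and 43.0 TPM). With 2 libraries, likeness of this kind says only that the levels are close.

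Genes that put haem to use in mitochondria were detected in both pups, at 1 TPM or more, in 3 of 5 cases, beside 31.8% of protein-coding genes. Cyc1, the cytochrome c1 of the respiratory chain, was at 364 TPM in pup 1 and 263 TPM in pup 3. Cycs, cytochrome c, was at 71.2 and 75.9 TPM, and Cox10, which makes haem O for cytochrome oxidase, at 28.2 and 26.6 TPM. Cox15, which converts haem O to haem A, had 2358 counts in pup 1 and 77.1 in pup 3, 38.1-fold higher in pup 1 (30.4 to 48.5). Hccs, which attaches haem to the c-type cytochromes, had 0 counts in both pups.

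Among microglia and macrophage genes, C1qc was at 41.5 TPM in pup 1 and 34.9 TPM in pup 3 and C1qb at 13.2 and 39.1 TPM. Of the 8 listed, 4 were detected in both pups, beside 31.8% of protein-coding genes. The list summed to 106 TPM in pup 1 and 124 TPM in pup 3. Csf1r was at 15.3 and 29.2 TPM and P2ry12 at 23.8 and 18.0 TPM. Cx3cr1 (156 and 3 counts) and Mrc1 (715 and 0 counts) were over 4-fold higher in pup 1, and Tmem119 had 0 counts.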
